A study of Mus musculus with 9 samples.

Results

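Alpha-defensins are small cysteine-rich antimicrobial peptides, and their transcripts were read in microdissected mouse tailbud regions with Illumina mouse bead arrays. All probes whose annotated symbol began with Defa or Defcr were taken, together with AY761185, which gave 14 probes of 9 genes among 45281 probes and 19057 named genes on the array. The 9 genes were Defa3 and Defa20 with 3 probes each, Defa31 with 2 probes, and Defa21, Defa23, Defa26, Defa39, the pseudogene Defa-ps1 and AY761185 with 1 probe each. Defa31, Defa3, Defa26 and AY761185 were chosen by their detection p-values in the tailbud and by their level above the presomitic mesoderm, so their detection and their level against that tissue are given as descriptions.

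In all, 3 regions of mouse embryos at embryonic day 10.5 were profiled, with 3 arrays each. The chordoneural hinge (CNH) is the region of the tailbud where neural tube and notochord meet and where axial progenitors reside, the tailbud mesoderm (TBM) is the mesenchyme beside it, and the unsegmented tissue from which somites bud is the presomitic mesoderm (PSM). Per the methods of the study, mouse embryos came from CD1 and C57Bl/6J females, tissue pieces of each region were pooled, and each region had 2 biological replicates and 1 technical replicate. The methods do not state whether a pool held both strains. Neither the strain of a sample nor the technical replicate is marked in the labels, so the p-values below measure only the spread between these arrays, which may in part be technical.

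In the adult mouse, alpha-defensins (also called cryptdins) are the hallmark product of Paneth cells at the base of small intestinal crypts, where they are secreted onto bacteria. They are made as propeptides, and in the mouse the matrix metalloproteinase Mmp7 cleaves them to their active form. Their transcription in Paneth cells is known to depend on WNT signalling through TCF factors, which bind short CTTTG-containing words in their promoters. The genes lie in a cluster on chromosome 8 that also holds beta-defensins, many copies are nearly identical, and the content of the cluster differs between mouse strains. A probe for one copy can therefore take up transcripts of another, and the probes' own letters were not used here, so each value below belongs to a probe and its annotated gene and not to a copy that has been told apart from its relatives.

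The stretch around the transcription start is shown for 3 of these genes, because it carries the TCF words and the degree of likeness within the family. Each window holds 250 bases before and 50 bases after the annotated start, from RefSeq on GRCm38.p6, in the sense of the gene. Capitals mark ATCAAAG, the reverse complement of the TCF word CTTTGAT, and the TATA box word TATAAA. Defa31 (chr8:21191323-21191622, plus strand) and AY761185 (chr8:20944699-20944998, minus strand) are the only detected genes for which a window was found. Defa20 (chr8:21509008-21509307, plus strand) is shown as a relative whose 3 probes were not detected on all arrays of any region.
Defa31: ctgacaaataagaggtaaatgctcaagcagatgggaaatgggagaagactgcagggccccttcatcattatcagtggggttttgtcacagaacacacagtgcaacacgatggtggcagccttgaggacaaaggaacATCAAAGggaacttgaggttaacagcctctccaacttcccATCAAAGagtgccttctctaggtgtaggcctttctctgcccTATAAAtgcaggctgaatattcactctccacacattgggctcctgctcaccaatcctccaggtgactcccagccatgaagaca
AY761185: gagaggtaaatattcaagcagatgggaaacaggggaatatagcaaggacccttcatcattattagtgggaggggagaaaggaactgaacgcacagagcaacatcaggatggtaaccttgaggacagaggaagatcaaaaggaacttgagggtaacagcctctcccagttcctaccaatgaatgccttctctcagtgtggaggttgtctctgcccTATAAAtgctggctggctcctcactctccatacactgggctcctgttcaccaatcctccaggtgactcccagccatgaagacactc
Defa20: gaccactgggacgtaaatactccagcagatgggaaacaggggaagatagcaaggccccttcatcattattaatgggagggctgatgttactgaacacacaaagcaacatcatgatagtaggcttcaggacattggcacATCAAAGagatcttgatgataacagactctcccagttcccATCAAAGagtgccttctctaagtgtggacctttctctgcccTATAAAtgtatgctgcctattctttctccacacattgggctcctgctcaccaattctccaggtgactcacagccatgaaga

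The Defa31 window held the word ATCAAAG 2 times, beginning 114 and 74 bases before the start, 40 bases apart. The AY761185 window held none, and the letters aligned with the 2 words there were atcaaaa and accaatg, of which 6 and 5 of 7 were shared with the word. The Defa20 window held both words in full. The word CTTTGAT and its 3 variants that end in GAA, GTA and GTT in place of GAT were searched on both strands, with overlapping matches counted apart, and 13 of the 17 alpha-defensin windows held at least 1 of them, against 16.9% of all 32851 windows of the same length. At least 2 were found in 9 of 17 alpha-defensin windows, against 1.94% of all windows. The word TATAAA on the sense strand was present in 16 of 17, against 8.32% of all windows. Over the 136 pairs of alpha-defensin windows, identity ranged from 50.9% to full identity with a median of 72.7%, and 17 pairs reached 90%. The Defa31 and AY761185 windows were 77.3% identical. The Defa23 window was identical to that of Defa31 over all 300 bases, although the Defa23 probe was not detected on any array. A word in a window is a description of its letters and says nothing of binding in these embryos.

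Defa31, a Paneth cell cryptdin gene, was detected by both of its probes on all CNH and TBM arrays. A probe is called detected on an array when its detection p-value, set against the array's negative control probes, was below 0.01. The first Defa31 probe (ILMN_2524945) read 2187, 2245 and 5732 units of signal in the CNH (replicates 1, 2 and 3), 1816, 1804 and 4918 in the TBM, and 73.9, 82.5 and 125.0 in the PSM. The second Defa31 probe (ILMN_2607813) read 2015, 1611 and 5089 in the CNH, 1793, 1653 and 5348 in the TBM, and 77.1, 74.0 and 136.9 in the PSM. Both probes were higher on every CNH and TBM array than on any PSM array, and among the PSM arrays both were detected on replicate 3 alone.

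After background correction and quantile normalization, the first Defa31 probe had a mean log2 value of 11.64 in the CNH, 11.37 in the TBM and 5.07 in the PSM. Its log2 difference was 6.57 for CNH minus PSM and 6.30 for TBM minus PSM (SE 0.29 each, n = 3 arrays per region). The second probe gave 6.31 and 6.28 (SE 0.30 each). Of the 3 PSM arrays, 2 had no detected signal, so these values rest in part on PSM levels at background. Within replicate number 3, where all regions were detected, CNH minus PSM was 5.52 for the first probe and 5.17 for the second, against 7.06 and 6.82 within number 1 and 7.12 and 6.93 within number 2, which rest on undetected PSM values. In the deposited signals number 3 had instead the highest CNH to PSM ratio, 45.8 for the first probe and 37.2 for the second, against 29.6 and 26.1 within number 1 and 27.2 and 21.8 within number 2. The 2 Defa31 probes held ranks 1 and 2 of the 12437 tested probes in both comparisons with the PSM.

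**Figure D1:**
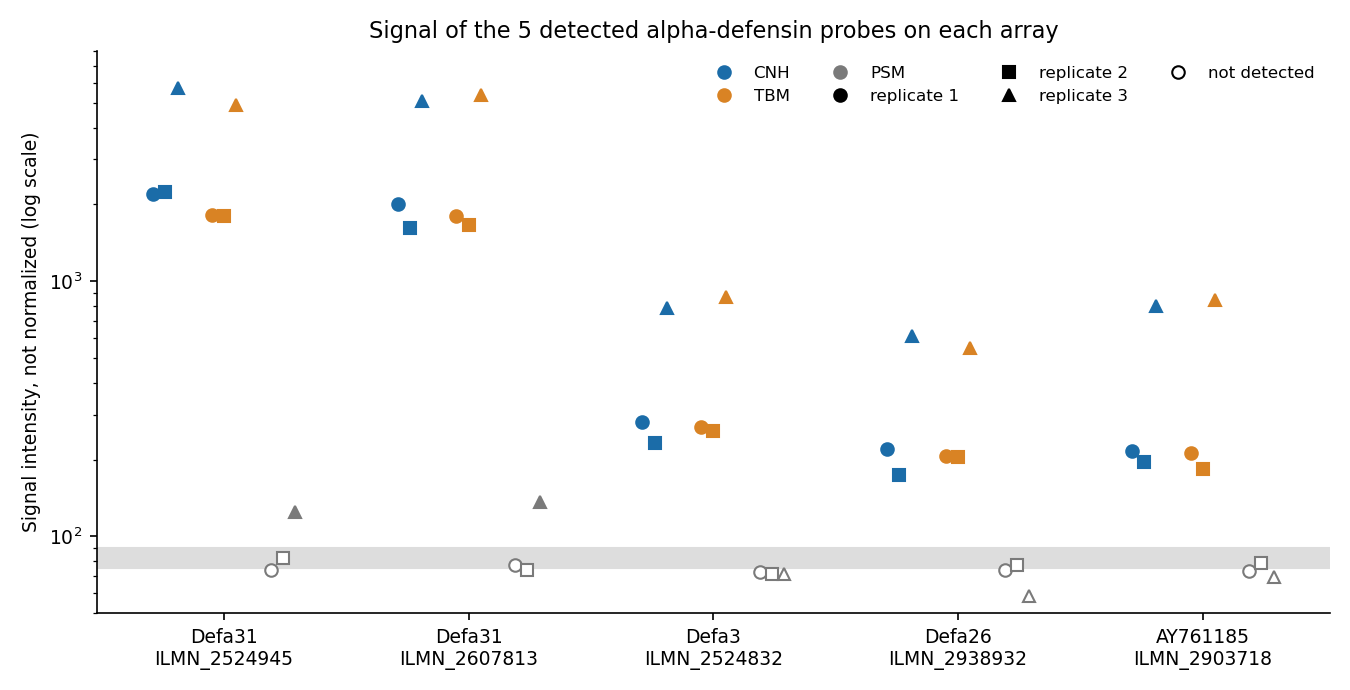
Signal intensity as deposited, before normalization, on a log axis for the 5 detected alpha-defensin probes, with the CNH left, the TBM in the middle and the PSM right for each probe, and a marker shape for each replicate number. Open markers were not detected, the grey band spans the lowest detected signal of the 9 arrays (75.4 to 89.9), and for each probe all CNH and TBM points lie above all PSM points, with replicate 3 the highest of the 3 in the CNH and in the TBM.

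Defa3, a second cryptdin gene, was read by 1 of its 3 probes. The probe ILMN_2524832 had 281.8, 232.5 and 786.2 units of signal in the CNH, 267.4, 257.6 and 864.9 in the TBM, and 72.8, 71.0 and 70.9 in the PSM. No PSM array detected it, so only a lower bound of the fold can be given, from mean log2 values with each PSM array at the lowest signal it detected for any probe or at the probe's own value, whichever was higher. With the background correction used here the CNH exceeded the PSM at least 10.1-fold and the TBM exceeded it at least 10.6-fold, and the fitted log2 differences were 3.82 and 3.89 (SE 0.14 each). The bound depends on that correction. Without background correction it was 4.19-fold for CNH against PSM and 4.38-fold for TBM against PSM, with log2 differences of 2.32 and 2.38, and in the deposited signals the CNH to PSM ratio was 3.87, 3.27 and 11.1 within replicate numbers 1, 2 and 3. The other Defa3 probes, ILMN_1221489 and ILMN_2691897, were not detected on any array, so the probes annotated to this gene disagree.

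AY761185 is annotated as a defensin gene of the same cluster. Its probe ILMN_2903718 read 215.1, 196.3 and 796.3 in the CNH, 211.8, 183.3 and 843.0 in the TBM, and 73.2, 78.3 and 69.6 in the PSM, where no array detected it. With the same correction the bounds were at least 8.19-fold higher for CNH against PSM and at least 7.94-fold higher for TBM against PSM, with fitted log2 differences of 3.48 and 3.43 (SE 0.24 each). Without it the bounds were 3.57-fold and 3.50-fold, and the log2 differences 2.04 and 2.01. Defa26, another cryptdin gene, read 219.6, 174.4 and 609.7 with its probe ILMN_2938932 in the CNH, 207.2, 205.1 and 546.7 in the TBM, and 73.6, 77.0 and 58.3 in the PSM, again with no detection. With the correction the CNH exceeded the PSM at least 7.01-fold and the TBM exceeded it at least 7.21-fold, with log2 differences of 3.38 and 3.42 (SE 0.22 each), and without it 3.14-fold and 3.20-fold, with 1.93 and 1.96. For both genes every CNH and TBM array stood above every PSM array.

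Over the 5 detected probes the median log2 difference was 3.82 for CNH minus PSM and 3.89 for TBM minus PSM, beside medians of -0.04 and -0.02 over all tested probes. All 5 had CNH values above every PSM value, as had 6.75% of all tested probes, and all 5 had TBM values above every PSM value, as had 6.19%. These shares are given for scale only, because detection in the tailbud is what chose the probes. All of Defa3, Defa26 and AY761185 were detected on 3 of 3 CNH arrays and 0 of 3 PSM arrays, a pattern shared by 1.29% of tested probes (0.86% for TBM against PSM). In tissue pieces of this kind, fewer cells with a transcript and less transcript per cell cannot be told apart.

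The contrast of CNH with TBM was not used to choose the probes and was tested, with limma and Benjamini-Hochberg adjustment over all 12437 tested probes. A probe was called when its adjusted p was below 0.05 and its difference at least 1.5-fold, and 1.01% of tested probes were called (0.78% higher and 0.225% lower in the CNH). None of the 5 alpha-defensin probes was called, and at an unadjusted p below 0.05 the count over all tested probes was 1556. The first Defa31 probe differed by 0.27 on the log2 scale (95% interval -0.37 to 0.91, adjusted p = 0.764), being higher in the CNH within each replicate number (0.15, 0.42 and 0.23). The second Defa31 probe differed by 0.03 (-0.64 to 0.70, adjusted p = 0.982). Defa3 differed by -0.08 (-0.38 to 0.23, adjusted p = 0.876), Defa26 by -0.04 (-0.52 to 0.44, adjusted p = 0.962) and AY761185 by 0.04 (-0.49 to 0.58, adjusted p = 0.963). CNH and TBM values of all 5 probes overlapped, while 2.51% of tested probes had every CNH value above and 2.3% every CNH value below the TBM values. The intervals of both Defa31 probes reached past 1.5-fold, while those of Defa3, Defa26 and AY761185 stayed within it, so with 3 arrays per region a CNH to TBM difference of that size lay inside the interval for Defa31.

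**Figure D2:**
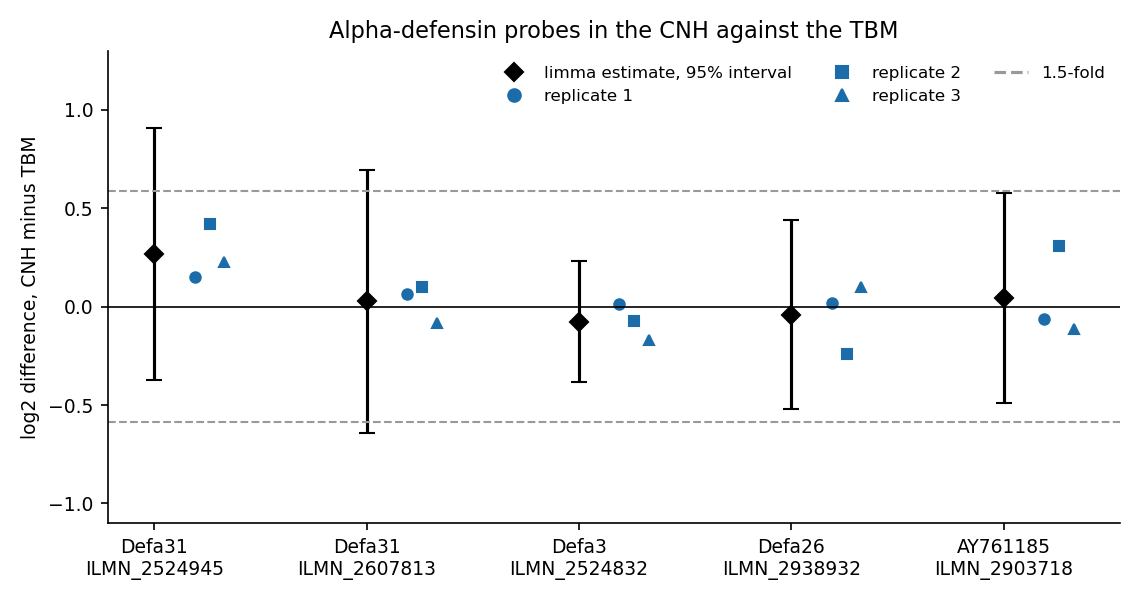
Log2 difference, CNH minus TBM, for the 5 detected alpha-defensin probes, with the limma estimate and its 95% interval as a black diamond and bar, and the differences within replicate numbers 1, 2 and 3 as blue markers. All 5 intervals include 0, and only those of the Defa31 probes (up to 0.91 and 0.70) cross the dashed line of 1.5-fold.

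The arrays of replicate number 3 stood apart, with a lower median signal over all probes (63.0 to 67.1 units) than those of replicates 1 and 2 (76.8 to 80.4). In the CNH and TBM the signals of the 5 detected alpha-defensin probes were highest on replicate 3, as were those of Defa31 in the PSM, while the undetected PSM signals of Defa3, Defa26 and AY761185 were lowest there. In normalized log2 values, replicate 3 exceeded the mean of replicates 1 and 2 in the CNH by 1.43 for AY761185, 1.16 for Defa26, 0.94 for Defa3, and 0.26 and 0.37 for the first and second Defa31 probe. In the TBM the same shifts were 1.66 for AY761185, 0.94 for Defa26, 1.08 for Defa3, and 0.32 and 0.54 for the Defa31 probes. Shifts above 1 were common, being seen in 19.6% of tested probes in the CNH and 17.5% in the TBM. In the PSM the Defa31 probes shifted by 1.83 and 2.08, which 1.82% and 0.925% of tested probes exceeded, and these are the only alpha-defensin signals detected in the PSM. The replicate number was a term of the fit. The part of strain, dissection or array run in this shift was not tested.

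The remaining 9 alpha-defensin probes, of Defa20, Defa21, Defa23, Defa39, Defa-ps1 and Defa3, were not detected on all 3 arrays of any region and did not enter the tests. Of their 81 pairs of probe and array, 4 were detected, all with signals next to the detection limit. They were 1 Defa20 probe (ILMN_1230099) on CNH replicate 2, Defa39 on CNH replicate 1 (detection p-value 0.00641), and Defa21 on CNH replicate 1 (0.00321) and TBM replicate 1 (0.00427). The numbers of alpha-defensin probes detected were 7, 6 and 5 on CNH replicates 1, 2 and 3, 6, 5 and 5 on TBM replicates, and 0, 0 and 2 on PSM replicates. None of these single detections was repeated on a further array of its region.

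**Figure D3:**
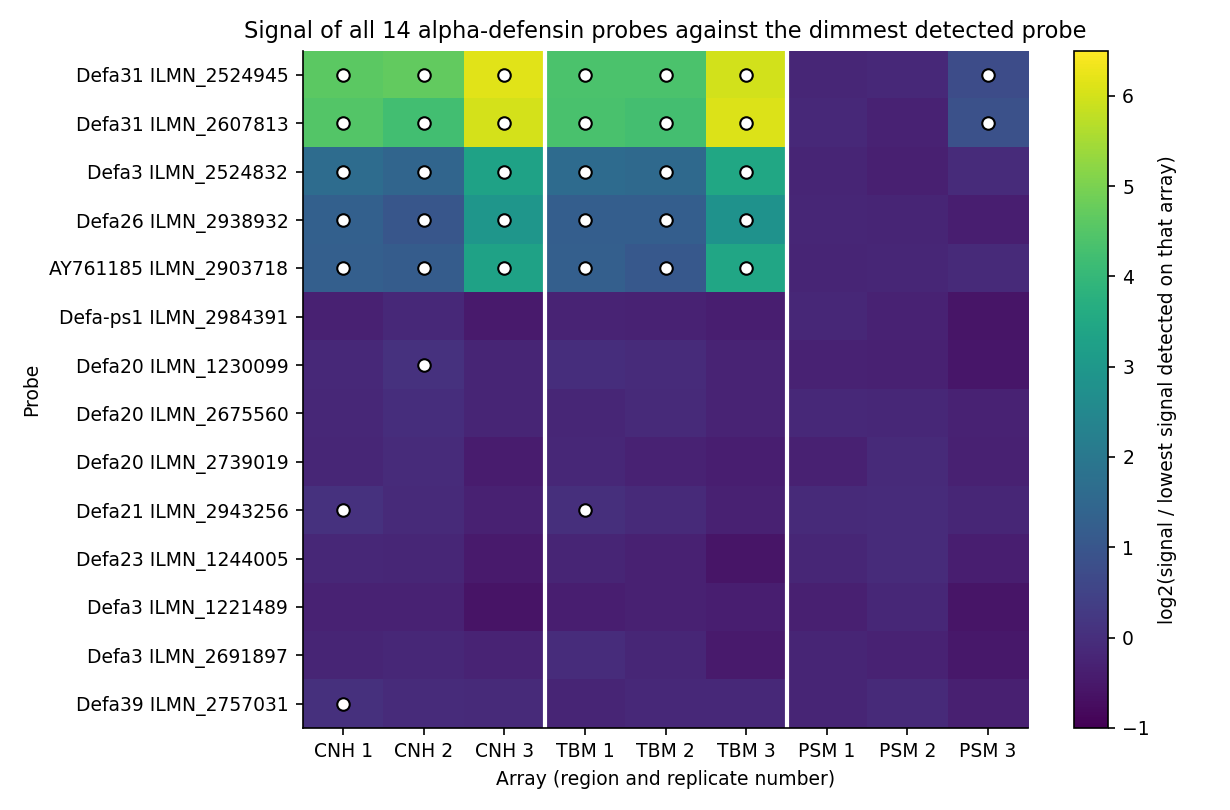
Signal of all 14 alpha-defensin probes (rows) on the 9 arrays (columns, CNH left, then TBM, then PSM), as log2 of the signal over the lowest signal detected on that array, with a white dot where the probe was detected. The upper 5 rows are detected on all 6 CNH and TBM arrays, the 2 Defa31 rows also on PSM replicate 3, and only 4 of the 81 cells of the lower 9 rows carry a dot.

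The beta-defensins, a related peptide family made by many epithelia, served as a comparison within the same array. None of the 50 probes of 42 beta-defensin genes was detected on all 3 arrays of a region, and 3 of them were detected, each on 1 array. Genes next to the cluster were then examined, taking every gene of the reference table within 1000000 bases of the outermost alpha-defensin gene, other than the alpha-defensins and beta-defensins themselves. Of 98 such genes, 25 were on the array and 13 were tested. Across all tested probes 11.2% were called for CNH minus PSM (6.66% higher, 4.54% lower) and 9.42% for TBM minus PSM (5.37% higher, 4.05% lower). Of the 13 neighbours 3 were called for CNH minus PSM and 2 for TBM minus PSM, all of them higher. For a gene with several tested probes, here and in the lists below, the probe with the highest mean value stands for the gene.

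Angpt2, a ligand of the endothelial Tie2 receptor, was the neighbour with the largest difference. Its probe ILMN_1234487 read 225.9, 176.0 and 482.0 in the CNH, 223.0, 185.7 and 402.1 in the TBM, and 88.8, 95.3 and 116.6 in the PSM, without overlap between the PSM and either of the other regions. It was higher by 2.19 on the log2 scale in the CNH and by 2.14 in the TBM than in the PSM (limma, adjusted p = 4.22e-06 and 6.79e-06). A second Angpt2 probe was detected on no array. Thsd1, which encodes a thrombospondin-domain protein of endothelial cells, was higher by 0.94 in the CNH (adjusted p = 0.00211) and by 0.82 in the TBM (adjusted p = 0.00546). Nek3, a NIMA-related kinase, was higher by 0.79 in the CNH (adjusted p = 0.00117), and its TBM difference of 0.57 (adjusted p = 0.00979) stayed below 1.5-fold. The remaining 10 tested neighbours, among them Mcph1 (-0.20) and Ikbkb (-0.14), were not called in either comparison, and no neighbour was called between CNH and TBM. Thsd1 and Nek3 lost their calls when the replicate number was left out of the fit (adjusted p = 1 and 0.298 for CNH minus PSM). Without background correction Thsd1 fell below 1.5-fold in the CNH and TBM (0.56 and 0.48). In the deposited log2 values Thsd1 lost both calls (limma, adjusted p = 0.0666 and 0.156). There Nek3 in the CNH (0.51) and Angpt2 in the TBM (0.58) also fell below 1.5-fold.

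Other genes known from Paneth cells were mostly not detected. Of 20 genes on the list, 4 were tested, and neither Mmp7, the protease that processes mouse alpha-defensins, nor the lectin Itln1, nor the phospholipase Pla2g2a was detected on any array. Lysozyme, Lyz1, was detected by 1 of its 3 probes at 106.3, 96.2 and 210.5 in the CNH, 92.9, 101.4 and 165.0 in the TBM, and 91.6, 106.5 and 123.3 in the PSM, and the regions overlapped (CNH minus PSM 0.25, adjusted p = 0.311). The ribonuclease Ang4 and the secretory factor Xbp1 did not pass the test either (CNH minus PSM -0.22 and 0.05). Sox9, a transcription factor also active in neural tube and notochord, was lower in the TBM than in the PSM (-1.76), higher for CNH minus TBM (1.78, adjusted p = 0.000899), and had a CNH minus PSM value of 0.02. Of the 4 Paneth genes, 0 were called for CNH minus PSM, beside 11.2% of all tested probes. For TBM minus PSM and for CNH minus TBM 1 was called, Sox9, beside 9.42% and 1.01%. With 4 tested genes these counts are too small to be read against those shares. The mean log2 value of the 4 genes ranged over arrays from 7.26 to 8.13 in the CNH, 6.74 to 7.75 in the TBM and 7.29 to 7.97 in the PSM.

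Genes of the gut endoderm and of epithelia were examined because the hindgut runs close to the dissected tissue. Of 16 such genes on the array, 10 were tested. Foxa2 and Epcam were detected on no array, and Foxa1, Sox17, Hnf4a and Vil1 were not detected on all 3 arrays of any region. Of the 10 tested genes, 5 were higher and 2 lower in the CNH than in the PSM, and 4 were higher and 4 lower in the TBM. The transmembrane protease Tmprss2 was higher by 3.48 in the CNH and 1.97 in the TBM, and the gut transcription factor Foxa3, detected on no PSM array, by 2.66 and 1.23 (bounds of at least 4.59-fold and 1.70-fold with background correction, and lower without it). Elf3, an epithelial ETS factor, was higher by 2.66 and 2.36 and was detected on 1 of 3 PSM arrays. For the keratin Krt19, undetected throughout the PSM, the bounds were at least 2.21-fold for CNH against PSM and 2.42-fold for TBM against PSM (1.44-fold and 1.52-fold without background correction). Cldn4 and Cdh1, a tight junction protein and the epithelial cadherin, were lower in the CNH (-1.36 and -1.12) and in the TBM (-1.43 and -0.77). Cldn6 and Krt18 were lower in the TBM (-0.98 and -0.66) and not called in the CNH (-0.44 and -0.36). The TBM calls of Cdh1 and Krt18 were lost without TBM replicate 3 and without PSM replicate 3. For CNH minus TBM, in which no alpha-defensin probe was called, Tmprss2 and the protease inhibitor gene Spint1 were higher (1.51 and 0.66, adjusted p = 0.0021 and 0.0286). Leaving out any single CNH or TBM array ended the Spint1 call (adjusted p = 0.0698 to 0.167), and leaving out any single TBM array or PSM replicate 3 ended the Foxa3 call in the TBM (0.0544 to 0.152). The mean log2 value of the 10 genes ranged from 7.04 to 7.91 in the CNH, 6.69 to 7.23 in the TBM and 6.32 to 7.01 in the PSM, and its part in the alpha-defensin values was not tested.

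White blood cells that carry antimicrobial peptides were represented by few detected genes. Of 16 genes for neutrophil and other antimicrobial proteins, 3 were tested, and the cathelicidin Camp, the neutrophil proteins Ngp and Ltf and the calgranulins S100a8 and S100a9 were detected on no array. The neutrophil granule enzyme genes Mpo, detected on all 9 arrays, and Prtn3, detected on 7, were tested and not called (-0.14 and -0.25 for CNH minus PSM, 0.07 and -0.11 for TBM minus PSM). The one called gene was Wfdc2, a secreted whey acidic protein family member of epithelia, with log2 differences of 1.28 for CNH minus PSM, 0.66 for TBM minus PSM and 0.62 for CNH minus TBM. The last of these calls was lost when any single array other than PSM replicate 3 was left out (adjusted p = 0.0597 to 0.253). Of 9 macrophage genes on the array, 3 were tested and 0 called (Csf1r 0.27, Aif1 0.09 and C1qb 0.16 for CNH minus PSM). Among the toll-like and NOD receptors and their adaptors, which sense bacteria, 13 were on the array, 4 were tested, and Tlr2 was higher in the CNH by 0.76 (adjusted p = 0.0212) with none called in the TBM. Without CNH replicate 1, CNH replicate 2 or PSM replicate 1 the Tlr2 call was lost (adjusted p = 0.103, 0.0838 and 0.0854).

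Proteases that can cut propeptides included the furin convertase gene Furin, higher by 1.46 in the CNH and 1.24 in the TBM than in the PSM, and Mmp2, higher by 0.82 and 0.72. Pcsk6, a convertase of the same family, was lower (-1.61 and -1.73). Of the 4 tested genes of this list, 2 were therefore higher and 1 lower in both comparisons, and Mmp14 did not pass the test (-0.07 and -0.23).

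Genes that carry or report nuclear WNT signalling were tested because TCF factors act on alpha-defensin genes in the intestine. Of 12 tested, 6 were higher and 3 lower in the CNH than in the PSM, and 6 were higher and 1 lower in the TBM, while 0 were called between CNH and TBM. The posterior homeobox gene Cdx2 was higher by 2.86 in the CNH and 2.47 in the TBM, the WNT deacylase gene Notum by 2.75 and 2.00, the WNT-induced factor Sp5 by 2.09 and 1.77, and the WNT inhibitor gene Apcdd1 by 1.62 and 1.54. Axin2, the usual readout of WNT activity, was higher by 0.83 and 0.89. Not all response genes went this way. Nkd2 was lower in the CNH (-0.94, limma, adjusted p = 0.00126) and not called in the TBM (-0.41). Nkd1 was called in neither comparison (0.15 and -0.10). Lgr5, Ascl2, Cdx1 and Myc were on the array and did not enter the tests. Of the TCF factors themselves, Tcf7l1 was lower (-1.24 and -1.13), and Lef1 was lower in the CNH (-0.87), a call lost without CNH replicate 1 (adjusted p = 0.0525), with a TBM value of -0.22. Tcf7l2, the TCF factor known from the intestine, and the WNT effector Ctnnb1 were not called (CNH minus PSM -0.36 with adjusted p = 0.16, and 0.04).

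The labels of the regions were set against known markers. Of 9 tested CNH and tailbud genes, 9 were higher in the CNH and 6 in the TBM than in the PSM, and of 7 tested PSM genes, 6 and 5 were lower, among them Tcf15 (-3.58 and -3.16), which was detected on all 9 arrays, and Meox1 (-3.74 and -3.98), which was detected on all but 1 TBM array. Tbx6, also on the PSM list, went the other way (0.12 and 0.54) and was not called. Its TBM difference (limma, adjusted p = 0.00873) stayed below 1.5-fold. The CNH and tailbud list holds genes that the study itself drew from these arrays and is not independent evidence. Over all lists and neighbours, 38 genes were called for CNH minus PSM and 32 for TBM minus PSM, against 20 and 17 when the replicate number was left out of the fit. Among the genes named above for CNH minus PSM, Foxa3, Spint1, Cdh1, Wfdc2, Notum, Apcdd1, Tcf7l1, Lef1, Nkd2, Mmp2, Tlr2 and Meox1 then lost their calls (adjusted p = 0.0645 to 1). Of the 7 list genes called for CNH minus TBM, 0 were still called.

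**Figure D4:**
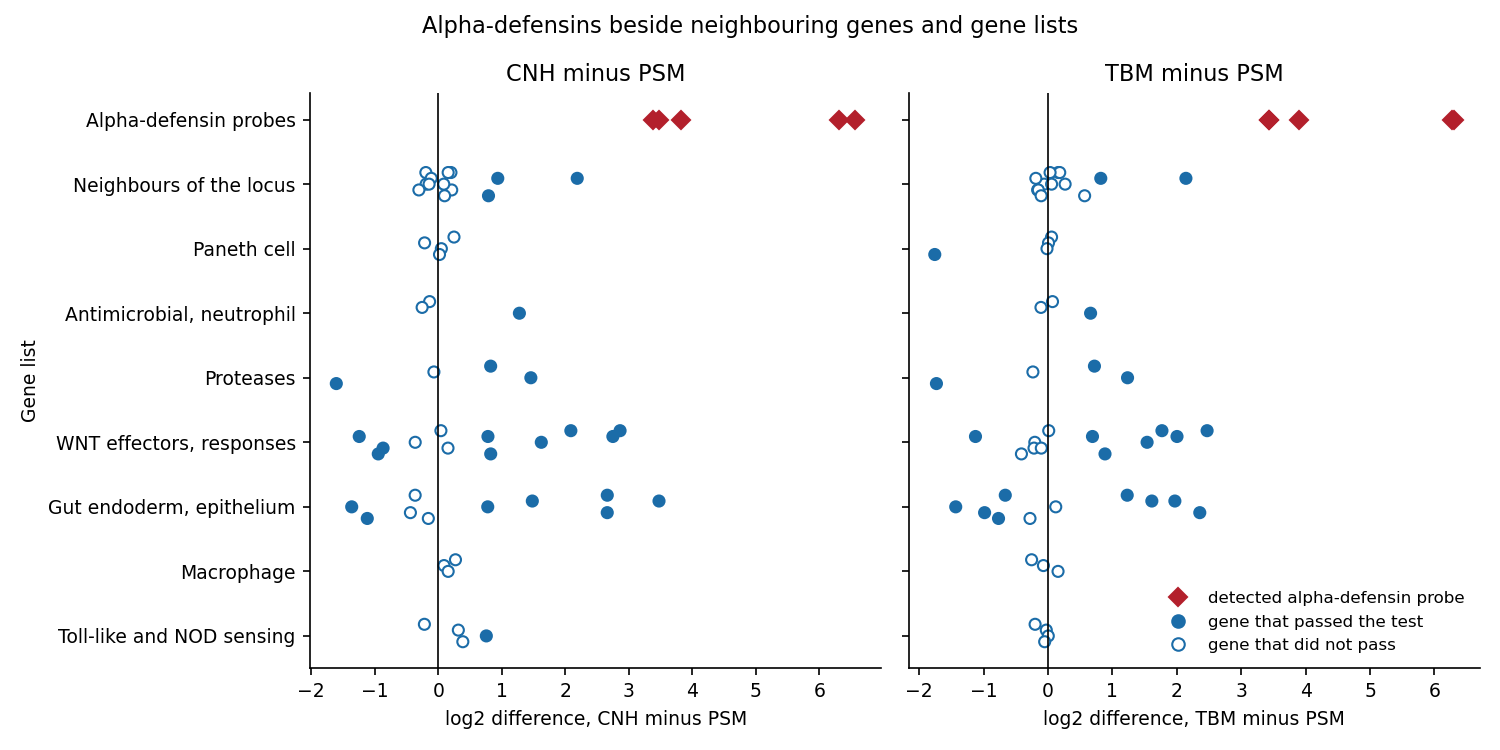
Log2 differences, CNH minus PSM on the left and TBM minus PSM on the right, for the 5 detected alpha-defensin probes (red diamonds, given as a description), for the 13 tested neighbours of the cluster and for the tested genes of 7 lists (circles, filled where called by limma). On the left the alpha-defensin probes lie between 3.38 and 6.57, Angpt2 at 2.19 is the farthest neighbour and none of the 4 Paneth genes is called. On the right 1 of the Paneth genes, Sox9, is called as lower (-1.76).

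The genes whose pattern over the 9 arrays was most like that of the first Defa31 probe were found by Pearson's r after the mean of each replicate number was removed. The 5 highest were Fgf17 (r = 0.9996), a fibroblast growth factor, Evx1 (0.9991), a posterior homeobox gene, Prr18 (0.9990), a proline-rich protein gene, Greb1 (0.9985), a hormone receptor cofactor gene, and Klhl32 (0.9976), a kelch-family gene. All 9 points share their array normalization and fall into a low PSM group and a high group of the other regions, so r mainly measures how evenly a probe is high in CNH and TBM, and 731 tested probes had r above 0.9. Fgf17 read 1985, 1615 and 4861 in the CNH with its probe ILMN_2812286, 1616, 1535 and 4010 in the TBM, and 133.7, 147.5 and 297.5 in the PSM. This probe was detected on all PSM arrays and the second tested Fgf17 probe, ILMN_2639788, on none. Its CNH minus PSM difference was 4.44, and those of Evx1, Prr18, Greb1 and Klhl32 were 3.94, 2.43, 2.80 and 2.94.

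Within the family, the second Defa31 probe had r = 0.9993 with the first, whereas Defa3, Defa26 and AY761185 had r of 0.983, 0.964 and 0.962 with it. Among themselves Defa3, Defa26 and AY761185 had r between 0.994 and 0.996. By r the Defa31 probes were closest to each other, and the other 3 probes, which had the larger replicate 3 shifts in the tailbud, to one another. Those 3 probes were undetected on every PSM array, and r here carries the contrast with the PSM that chose the probes. It therefore does not establish groups within the family. Outside the family, 231 named probes had a higher r with the first Defa31 probe than AY761185 had.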

How the data were processed

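Tissue from the CNH, TBM and PSM was hybridised to Illumina Ref6v2 bead arrays. The authors deposited non-normalized signal intensities with a detection p-value for each of 45281 probes and 9 arrays, and deposited a table of log2 values that, per the methods of the study, had been variance stabilised and spline normalized in lumi (array medians 7.24 to 7.25). The log2 values served as an alternative. Here, intensities were background corrected with limma 3.58.1 (neqc, offset 16, in R 4.3.3), quantile normalized and taken to log2. Probes with detection p below 0.01 on all 3 arrays of a region were kept (12437). Models held region and replicate number (4 residual degrees of freedom). The labels number the replicates alike in each region, and deviations of same-numbered arrays correlated at 0.858 to 0.964, while number 3 against 1 or 2 gave -0.93 to -0.895. Arrays of number 1 against number 2 correlated at 0.863 to 0.893. These values set number 3 apart from 1 and 2, and do not show that 1 and 2 are paired by number across regions. The number of arrays limits the precision. Probes with several or no gene symbols (18 and 10378) were left unnamed, and symbols were updated by Entrez identifier. All alpha-defensin probes, list genes that were called (up to 4 a list), called neighbours and the 5 genes most like Defa31 were named, plus further list genes picked after their values were seen. A gene with several tested probes was represented by the one with the highest mean log2 value. The members and lists were chosen with earlier results of these data known. The test was checked on simulated data with independent arrays and the replicate term built in, which do not model a technical replicate. Promoter words were counted in Python.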

Additional observations from a re-analysis of the deposited data

How the results depend on the processing

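In these alternatives the 5 alpha-defensin probes stayed above the PSM throughout, while the size depended on the treatment of background, which sets the level of undetected PSM values. Their median log2 difference for CNH minus PSM, 3.82 as reported, was 2.32 without background correction, 2.61 with an offset of 50 and 1.06 in the deposited log2 values, and for TBM minus PSM, 3.89 as reported, it was 2.38, 2.68 and 1.12. Leaving out arrays gave 3.64 to 3.91 and 3.69 to 4. For CNH minus TBM the median of 0.03 ranged from -0.10 to 0.08 when arrays were left out, being -0.10 without CNH replicate 3 and -0.07 without TBM replicate 2. Single probes changed sign there, with no call in any of 21 alternatives. With arrays left out AY761185 ranged from -0.18 to 0.30, Defa26 from -0.27 to 0.14, Defa3 from -0.15 to 0.05 and the second Defa31 probe from -0.20 to 0.34, while AY761185 was -0.01 in the deposited values and the second Defa31 probe 0 with replicates 1 and 2 averaged. The lowest adjusted p was 0.0887, for the first Defa31 probe. The counts of called list genes and neighbours, 38, 32 and 7 for CNH minus PSM, TBM minus PSM and CNH minus TBM, were 20, 17 and 0 without the replicate block and 25, 18 and 3 in the deposited values. Over all tested probes, CNH minus TBM gave 125 calls, 0 without the replicate block (229 at an unadjusted p below 0.05) and 15 in the deposited values, and the cause of these losses was not tested. Detection at p below 0.05 in place of 0.01 left 5, 5 and 0 probes detected on all arrays of CNH, TBM and PSM. Requiring detection on all 9 arrays left no alpha-defensin probe and gave no value.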

Other observations

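Among tested probes with no gene symbol, ILMN_1231270 and ILMN_1254739 came next after the Defa31 probes in CNH minus PSM, with log2 differences of 5.78 and 5.63 for CNH minus PSM and of 5.79 and 5.71 for TBM minus PSM, each with detection on 1 of 3 PSM arrays. Their r with the first Defa31 probe over the 9 arrays was 0.997 and 0.994. The genes they read were not identified here.

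Nnt, part of which is deleted in C57BL/6J mice, was tested by 1 of its 8 probes, with signals of 86.6 to 103.5 on the 9 arrays. It did not pass the test for CNH minus PSM or TBM minus PSM (-0.23 and -0.13, limma, adjusted p = 0.353 and 0.657). Where in the gene the probe lies was not determined, so it does not separate the strains.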
